A study of Mus musculus with 1152 samples.

Results

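Committed oligodendrocyte precursors are the cells between the dividing oligodendrocyte precursor and the oligodendrocyte that wraps myelin. Here they were chosen by their own transcripts, from wells with at least 50000 reads: a well counted as committed when it had at least 500 CPM (read counts scaled to the total reads of the well) of Enpp6, under 100 CPM of Pdgfra and under 5% of its reads on mitochondrial (mt-) genes. The rule found 78 of 857 wells (9.10%, exact binomial 95% interval 7.26 to 11.2). They were set against 223 wells of mature oligodendrocytes (Mog of at least 800, Mag of at least 1000 and Enpp6 under 500 CPM), the stage after, and 225 wells of oligodendrocyte precursors (Pdgfra and Ptprz1 of at least 300 and Enpp6 under 500 CPM), the stage before. The mature rule had no Pdgfra limit and the precursor rule no Mog or Mag limit. A well with both sets of transcripts could thus count in both classes, and the number of such wells is not given here.

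Oligodendrocyte precursors divide, respond to platelet-derived growth factor through Pdgfra and carry a coat of chondroitin sulphate proteoglycans. On commitment they leave the cell cycle, switch off Pdgfra, extend a net of branched processes and switch on the transcription factor Myrf, which drives the myelin genes. The stage is short in life and is known for the receptor Gpr17 and the choline phosphodiesterase Enpp6, both of which are low again in cells that have myelinated.

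The wells held fluorescent single brain cells of adult C57BL/6 mice of 2 lines, Pdgfra-H2BGFP, in which a nuclear green protein follows the Pdgfra gene, and Tagl-CREERT2;Ai14, in which a tamoxifen-dependent recombinase turns on a red protein. Both sexes were used, and the cells came from vascular fragments caught with beads against the endothelial protein CD31, then digested and sorted. Full-length cDNA of each cell was sequenced by SMART-seq2. The labels tie no well to a line, an animal or a plate, so the wells are 1 sample without replicates, and every ratio below describes size and carries no test. Shares of wells follow the capture and the gate and say nothing of shares in the brain.

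The well names divide the wells into 3 sets of 384, and the committed wells were unevenly spread over them. Set 600s_182s held 63 (18.1% of its 349 wells with enough reads, 14.2 to 22.5), set 613s held 8 of 269 (2.97%, 1.29 to 5.78) and set 1025s_182s held 7 of 239 (2.93%, 1.19 to 5.94). Most pooled values of the class are therefore values of set 600s_182s. Committed wells were also the deepest class, with a median of 470772 reads and 8053 genes, against 360248 reads and 6410 genes in mature wells and 264256 reads and 7027 genes in precursor wells. The range over committed wells was 125885 to 1366138 reads. In set 600s_182s a low level of lineage transcripts was found in every class: Pdgfra reads were present in 63 of 63 mature wells there (median 23.4 CPM) and in 22 of 74 mature wells of set 1025s_182s (median 0 CPM). The reads of the most abundant gene of a well hardly grew with depth, with a median of 2471 in the shallowest of 4 depth classes of wells and 3389 in the deepest, at median depths of 87448 and 592784 reads. Over the 78 committed wells, CPM of the myelin gene Cnp was inversely ranked with depth (Spearman rho -0.58), while Gpr17 (0.02) and Enpp6 (0.04) were not. Ratios of the most abundant myelin genes between classes of unlike depth may thus be altered to an unknown degree.

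No wells lay close to the Pdgfra and mitochondrial limits, while Enpp6 values ran on across its limit. With an Enpp6 minimum of 300 or 1000 CPM the class held 89 or 63 wells. The lowest committed values of Enpp6 were 524, 624 and 777 CPM, and the highest values just outside, in wells that met the other conditions, were 492, 482 and 479 CPM. For Pdgfra the highest committed values were 71.5, 63.8 and 60.6 CPM, and the nearest wells outside had 383, 511 and 582 CPM. Mitochondrial genes took up to 3.69% of the reads of a committed well, and the 1 well left out for them had 11.6%. Of 85 wells that reached the Enpp6 minimum, 6 were left out for Pdgfra and 1 for mitochondrial genes.

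The label was checked against 5 further markers of the stage, which the rule did not use: the receptor Gpr17, the sialidase Neu4, the early myelination gene Bcas1, the focal adhesion gene Tns3 and the Src-family kinase Fyn. At 100 CPM or more, 56 of 78 committed wells had all 5 and 74 had at least 4, against 18 of 223 mature wells and 88 of 225 precursor wells with at least 4. The remaining 4 committed wells had 1 or 2 of the 5. They were 3 wells of set 1025s_182s and 1 of set 613s, and 3 of the 4 had Mag at 2600 to 4130 CPM. Of all committed wells, 25 also reached the Mog and Mag minimum that defined mature wells. Of 8 markers each, 5 of astrocytes, 4 of neurons, 2 of microglia, 2 of fibroblasts, 2 of choroid plexus and ependyma, 1 of mural cells and 0 of endothelial cells reached 10 CPM in the summed committed wells. The number of wells with at least 3 markers at 20 CPM was 15 for astrocytes, 6 for neurons, 3 for microglia, 3 for fibroblasts, 1 for mural cells, 0 for endothelial cells, 0 for choroid plexus and ependyma, and 2 for erythrocytes. The summed CPM of the 8 astrocyte markers ran from 6.95 to 1454 (median 322) in committed wells, 0 to 14889 (median 345) in mature wells and 16.4 to 11739 (median 1476) in precursor wells. The fibroblast marker sum had a median of 25.6 CPM over committed wells and reached 6403 CPM in 1 of them. Leaving out every well with such markers of another type left 53 committed, 110 mature and 37 precursor wells.

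**Figure D1:**
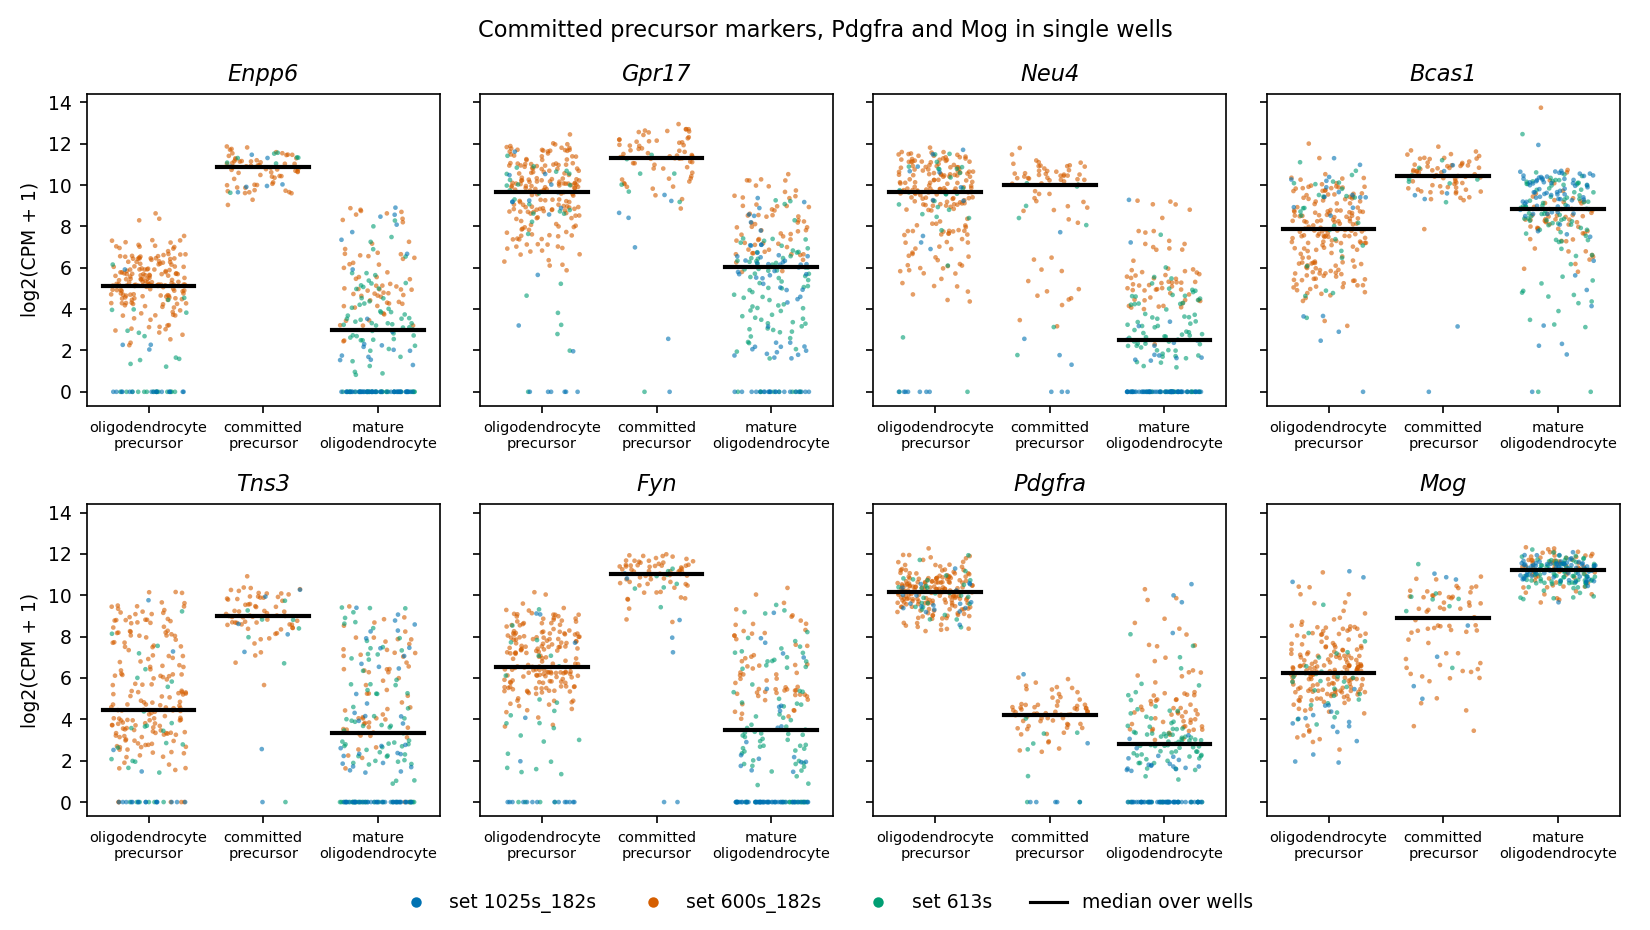
Each point is 1 well, with its level of a gene as log2(CPM + 1) on the vertical axis, the 3 classes side by side and the set as colour, and the bar is the median over wells. Enpp6 and Pdgfra separate the classes they defined, Mog overlaps between committed and mature wells, Fyn and Tns3 were highest in committed wells, and Neu4 was at a like level in committed and precursor wells.

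Fyn, a kinase that couples axonal contact to process growth and local myelin basic protein synthesis, ran from 0 to 4044 CPM over the committed wells (median 2101). In precursor wells it ran from 0 to 1132 CPM (median 90.2) and in mature wells from 0 to 1309 CPM (median 10.3). The ranges overlap only through the lowest committed wells, since the lower quartile of committed wells was 1421 CPM, above the highest precursor and mature well. Tns3, a tensin that links integrins to the actin skeleton, had a median of 507 CPM in committed wells (0 to 1934), 21.0 in precursor wells (0 to 1141) and 9.02 in mature wells (0 to 703). On summed counts the log2 ratio of committed to mature wells was 5.01 for Fyn and 3.12 for Tns3, and that to precursor wells 3.77 and 2.42. Both genes were thus higher than in the stage before and the stage after.

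Gpr17, a receptor that holds back the last steps of maturation, was at a median of 2504 CPM in committed wells (0 to 7888), 820 in precursor wells (0 to 5579) and 63.6 in mature wells (0 to 1471). Neu4, which trims polysialic acid from surface glycoproteins, had medians of 1032, 804 and 4.75 CPM in the same order, and its ranges in committed wells (0 to 3549) and precursor wells (0 to 3588) were almost the same. Bcas1 had medians of 1395, 231 and 456 CPM. Their log2 ratios to mature wells were 4.10, 5.50 and 1.36, and those to precursor wells 1.23, -0.11 and 1.81. Neu4 was therefore at the precursor level. Gpr17 and Bcas1 were more than 2-fold higher than in both classes, with Gpr17 next highest in precursor wells and Bcas1 in mature wells. Within set 613s the log2 ratio of Gpr17 to precursor wells was 0.82. Bcas1 shares exon bases with an antisense gene, and the strand setting of the counting is not given in the sources used here. In the smaller sets the markers were lower than in set 600s_182s for Gpr17, with medians of 2748 CPM in 600s_182s, 1268 in 613s and 340 in 1025s_182s, and not for Enpp6 in set 613s (1831, 2545 and 1044 CPM).

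To see which genes were high at this stage and low on both sides of it, a gene was called transient when its CPM of summed counts was at least 4-fold higher in committed wells than in each of the other classes, with at least 50 CPM there and at least 10 CPM in 50% or more of the committed wells. Genes that defined the classes were left out. The classes are a snapshot, and no time was measured. There were 74 such genes among 11748 with 10 CPM in any class (0.63%). A 2-fold difference at 10 CPM was reached over both classes by 554 genes. Within set 600s_182s all 74 were at least 2-fold higher than in both classes and 58 at least 4-fold, and within set 613s 70 and 57. The wells of both sets were among those that chose the 74, with 63 of the 78 committed wells in set 600s_182s. These counts are thus no independent repeat. Without set 600s_182s, 73 genes met the rule, of which 44 were among the 74.

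**Figure D2:**
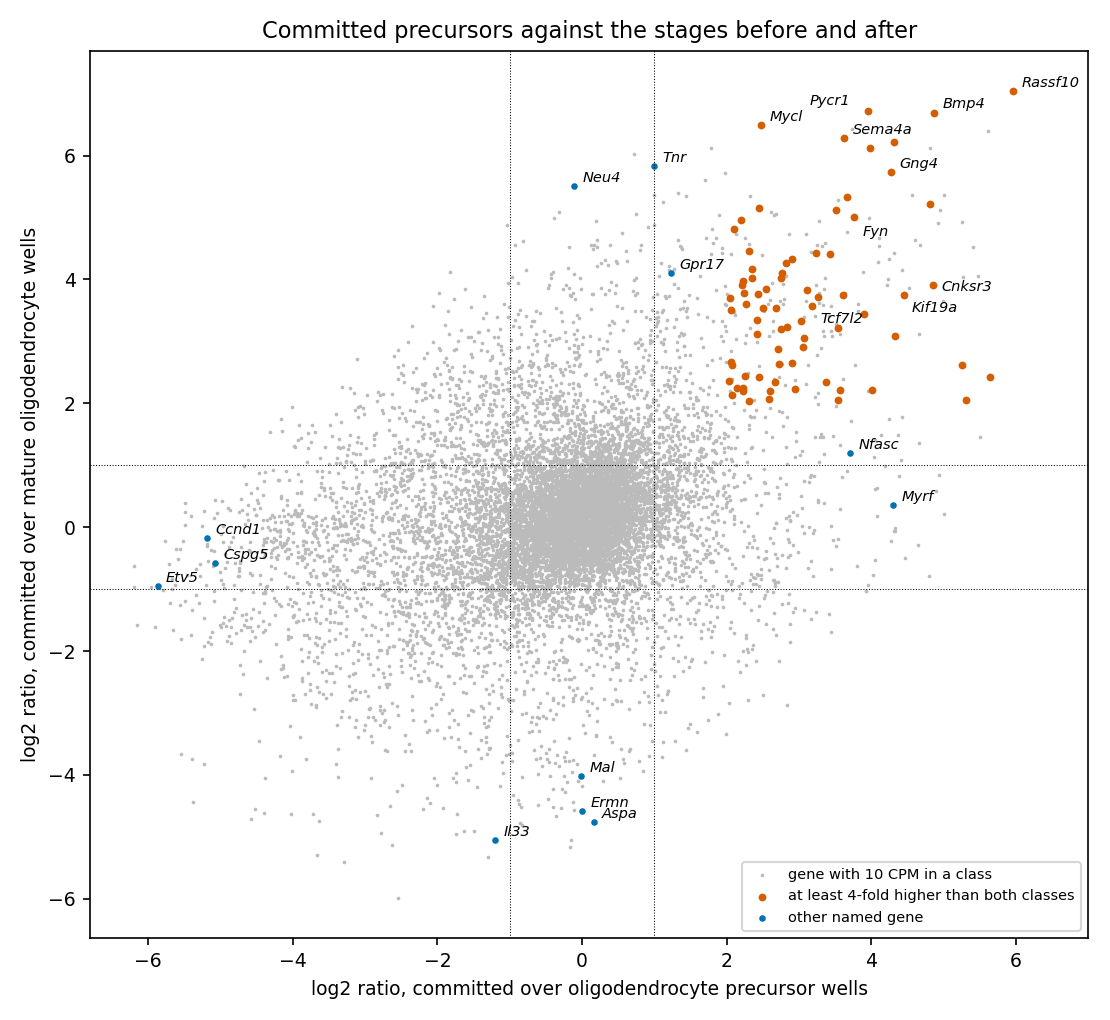
Each point is a gene, placed by its log2 ratio of committed over oligodendrocyte precursor wells (horizontal) and over mature oligodendrocyte wells (vertical), and dotted lines mark 2-fold. The 74 transient genes lie at the upper right with Rassf10 outermost, late myelin genes such as Ermn and Aspa lie at the bottom, and cell cycle and precursor genes such as Ccnd1 and Etv5 at the left; both axes share the committed wells.

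The gene that stood out most was Rassf10, a member of the Ras-association domain family (GRCm38 chromosome 7, 112953962 to 112957457, plus strand). Over committed wells its quartiles were 2.68, 77.1 and 421 CPM, and its median was 0 CPM in both other classes. Summed wells had 238 CPM (Poisson 95% interval 234 to 243, counting error only), against 2.83 CPM in precursor and 0.815 CPM in mature wells, log2 ratios of 5.96 and 7.04. These values rest on 9610, 199 and 75 reads. After every well was thinned to 50000 reads, 59.0% of committed wells kept a Rassf10 read, against 16.9% of precursor and 5.38% of mature wells (85.9%, 45.8% and 21.5% at full depth). The ratios were 5.62 and 6.26 within set 600s_182s.

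The first 25 transient genes, ordered by the smaller of the 2 ratios, are described next, grouped by hand after the order was known. Gng4, a G protein gamma subunit, had 466 CPM in committed wells, 23.1 in precursor wells and 7.74 in mature wells. Cnksr3, a scaffold of Ras signalling, had 375, 11.9 and 24.1 CPM. Pik3r3, a regulatory subunit of phosphoinositide 3-kinase, had 475, 30.8 and 42.8 CPM. Rnd2, a small GTPase, had 620, 56.5 and 28.1 CPM, and shares exon bases with Vat1 on the opposite strand, itself among the 74, and reads on the shared bases cannot be told apart. Dock6 and Dock4, exchange factors for small GTPases, had 106 and 93.3 CPM against at most 9.93 CPM in either other class. Their smaller log2 ratios were 4.27 (Gng4), 3.91 (Cnksr3), 3.44 (Pik3r3), 3.43 (Rnd2), 3.61 (Dock6) and 3.11 (Dock4).

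Frmd4a, a scaffold with a FERM domain, had 666 CPM in committed wells, 51.7 in precursor wells and 15.6 in mature wells. Epb4.1l2, a protein 4.1 family member that ties membrane proteins to spectrin and actin, had 1110.5, 94.6 and 118 CPM, and Map1b, a microtubule-associated protein of growing processes, had 1395, 166 and 166 CPM. Kif19a, a kinesin, had 87.5 CPM against 3.05 and 5.60. Itgb7, an integrin beta subunit best known from lymphocytes, had 113 CPM against 6.21 in precursor wells and 0.641 in mature wells. It was uneven over the committed wells, with a median of 23.8 CPM. Other genes of the 25 included Plod2 and Col20a1 (a collagen-modifying enzyme and a collagen), the sulphotransferase Ust, the mannosidase Man1c1, the translation inhibitor Pdcd4, Nhsl2 and D430041D05Rik. Col20a1 did not reach 2-fold over the precursors within set 613s, with a log2 ratio of 0.79.

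Of the secreted factors, Bmp4 and Sema4a were transient. Bmp4, a bone morphogenetic protein that keeps precursors from maturing in culture (chromosome 14, 46383520 to 46390669, minus strand), ran from 0 to 2052 CPM over committed wells (median 553). In precursor wells the median was 8.06 CPM (0 to 1098) and in mature wells 0 CPM (0 to 938). The summed values were 545 CPM (538 to 552) against 17.6 and 4.27, log2 ratios of 4.87 and 6.69. Bmp4 reads were seen in 92.1% of mature wells of set 600s_182s at a median of 9.65 CPM, and in 6.76% of those of set 1025s_182s. Sema4a, a semaphorin, ran from 0 to 2052 CPM in committed wells (median 187) and had medians of 3.89 and 0 CPM in precursor and mature wells, with log2 ratios of 3.63 and 6.28. Pdgfa, a ligand of the Pdgfra receptor, was also among the 74, at 266 CPM against 24.7 in precursor and 51.5 in mature wells, log2 ratios of 3.38 and 2.34. It shares exon bases with an antisense gene.

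Of the 10 genes highest against mature wells, the channel gene Panx1 (226 CPM in committed, 65.0 in precursor and 2.26 in mature wells) and Sh3bp4 (654, 399 and 9.02) were not transient, with log2 ratios to mature wells of 6.12 and 6.03.

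Over all genes with 10 CPM in either class, 1977 of 10377 (19.1%) were at least 2-fold higher in committed than in mature wells and 1308 (12.6%) at least 2-fold lower, with a median log2 ratio of 0.17. Against precursor wells, 1240 of 11444 (10.8%) were higher, 2781 (24.3%) were lower and the median was -0.17. Scaling by median ratios in place of totals moved the median against mature wells by -0.13, and 1693 genes were then higher and 1577 lower. The excess of higher over lower genes against mature wells thus depends on the scaling. Without set 600s_182s, 2303 genes were higher and 2211 lower than in mature wells, and 2268 were higher than in precursor wells, from 15 committed wells. These shares are the background for the counts below, in which members of a list with 10 CPM in either class are counted as measured. The lists were chosen with earlier results of these data known, and the 2 comparisons share the committed wells.

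The list of genes of newly formed oligodendrocytes had 20 of 25 measured members higher than in mature wells, 3 lower, and a median log2 ratio of 3.22. Against precursor wells 21 of 25 were higher, 1 was lower and the median was 2.51. The list was drawn up from knowledge of this stage, so these counts describe how well the wells match the name. Itpr2, a calcium release channel, had 553 CPM against 203 in precursor wells and 12.6 in mature wells. Tmem2, a cell surface hyaluronidase, had 249 CPM against 9.59 and 5.09 CPM, and Rras2, a Ras-related GTPase, 258 CPM against 13.0 and 16.3. Both had ratios of the size of the leading transient genes, and they missed that call because 38.5% and 46.2% of committed wells had 10 CPM of them. The members lower than in mature wells were Birc2 (-2.75), Mbnl2 (-1.74) and Ctps (-1.57).

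Transcription factors were lower than, near to or higher than in the precursor. Of 37 measured factors, 14 were lower than in precursor wells and 10 higher (median -0.34). Of 30 measured against mature wells, 12 were higher and 4 lower (median 0.64). Among the lower were the Notch target Hes5, with 156 CPM in precursor and 2.73 in committed wells, Etv5 (624 and 9.70), which responds to fibroblast growth factor, and Id2 (169 and 17.6), an inhibitor of bHLH factors. Over wells, Etv5 had a median of 423 CPM in precursor wells and 8.15 in committed wells. Their log2 ratios to precursor wells were -5.40, -5.87 and -3.19.

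Myrf, the master regulator of myelin genes, was within 2-fold of its mature level. Its median was 434 CPM in committed wells (0 to 1442), 291 in mature wells (0 to 2068) and 12.1 in precursor wells (0 to 465), with log2 ratios of 4.30 to precursor and 0.35 to mature wells. St18, another factor of differentiating oligodendrocytes, had 142 CPM in committed, 148 in mature and 6.19 in precursor wells. Nkx6-2 and Zfp536 lay between the stages, at 114 CPM against 22.9 and 383 for Nkx6-2 and 98.2 against 41.4 and 273 for Zfp536. Nkx6-2 shares exon bases with Inpp5a on the opposite strand, and Zfp536 was not higher than in precursor wells within set 613s (-0.38). Sox10 and Olig2, factors of the whole lineage, differed by less than 2-fold from either class, with log2 ratios of 0.25 and -0.87 to precursor and 0.66 and 0.30 to mature wells.

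A smaller group of factors was highest at this stage, or near its precursor level and higher than in mature wells. Tcf7l2, the effector of Wnt signalling in this lineage (chromosome 19, 55741820 to 55933654, plus strand), ran from 0 to 2300 CPM in committed wells (median 511), 0 to 1130 in precursor wells (median 24.2) and 0 to 808 in mature wells (median 10.5). Its log2 ratios were 3.18 and 3.57. Mycl, a Myc family member, had medians of 394, 8.29 and 0 CPM in committed, precursor and mature wells, and log2 ratios of 2.48 and 6.50. Zfp488, a co-factor of Olig2, had 388 CPM against 127 and 92.4. Sox6 and Sox4 were within 2-fold of the precursor (-0.12 and 0.77) and far over the mature class, both at a log2 ratio of 3.78. Sox5, the partner of Sox6 in holding precursors immature, was lower than in precursor wells (-2.06) and higher than in mature wells (3.57).

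**Figure D3:**
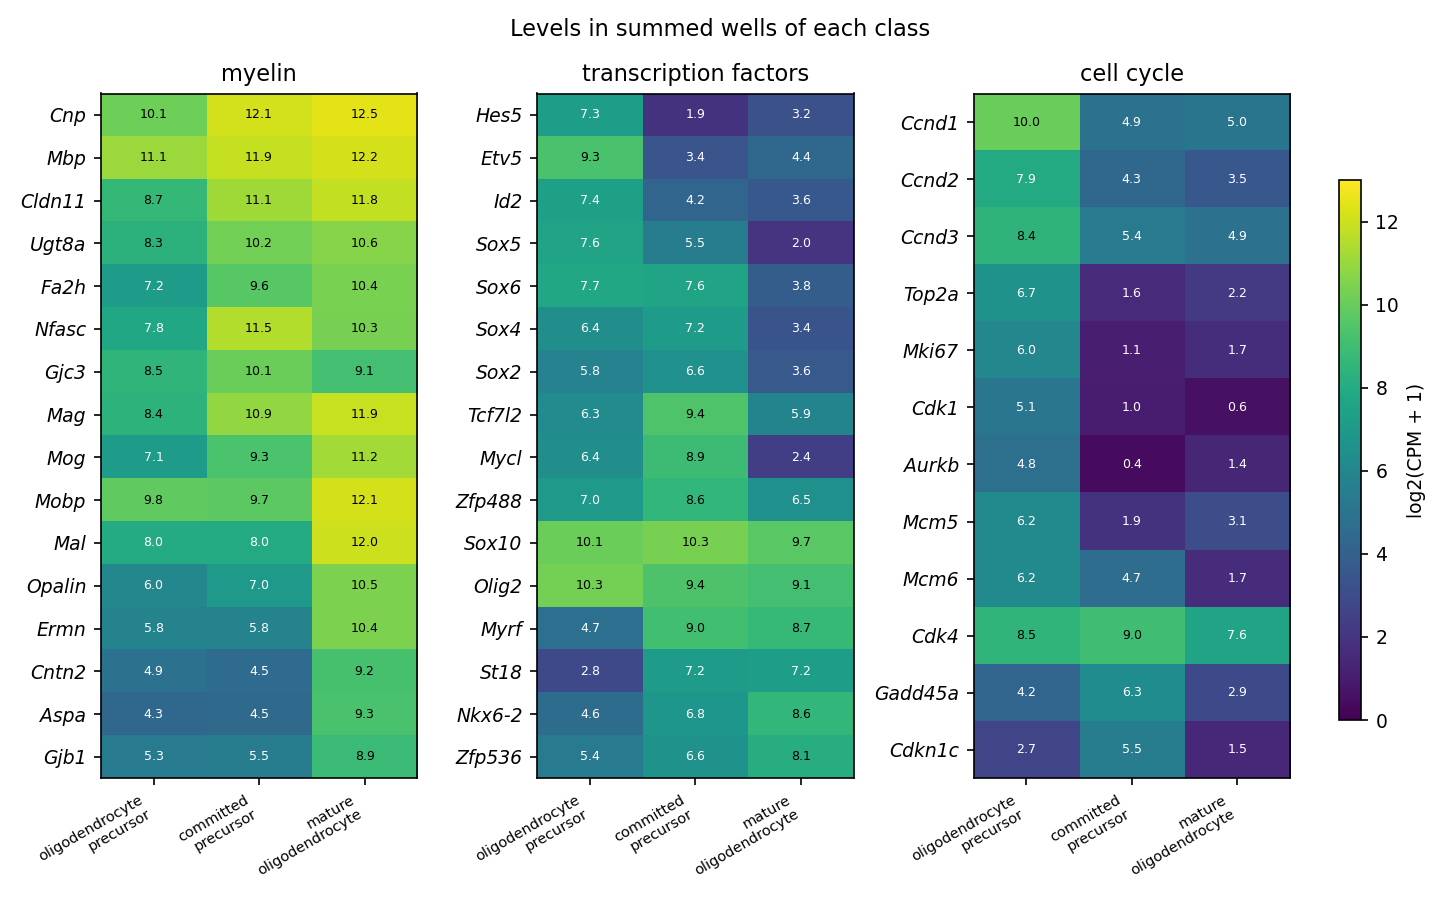
Colour and number give log2(CPM + 1) of the summed wells of each class, for members of 3 lists. Rows are read from left to right, since levels are not corrected for gene length: Cnp and Mbp were near their mature level in committed wells while Mal, Ermn, Cntn2 and Aspa were not, and cyclins and mitotic genes were low.

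Of 22 myelin genes besides the defining Mog and Mag, 12 were higher in committed than in precursor wells and 1 lower (median 1.32), while 11 were lower than in mature wells and 1 higher (median -1.08). Taking both comparisons, 8 were higher than in precursor wells and within 2-fold of the mature level, 3 lay between the stages (higher than in precursor, lower than in mature wells), 1 was lower than in both and 1 higher than in both. Several abundant genes were near the mature level: log2 ratios to mature wells were -0.37 for Cnp, an enzyme of non-compact myelin, -0.31 for Mbp, -0.67 for the tight junction claudin Cldn11 and -0.42 for Ugt8a, which makes galactocerebroside. Their ratios to precursor wells were 2.01, 0.79, 2.47 and 1.88. Over wells, Cnp had a median of 4691 CPM in committed wells (159 to 9969.8), 6369 in mature wells (2929.8 to 14235) and 993 in precursor wells (27.4 to 6702). These are the genes most touched by the flat read numbers described above, and committed wells were deeper than both other classes. The part of depth in their ratios was not tested.

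Other myelin genes were near the precursor level and lower than in mature wells. Ermn, a cytoskeletal protein of the outer myelin tongue, had a median of 11.1 CPM in committed wells, 14.0 in precursor wells and 1291 in mature wells, and 9 of 78 committed wells reached 100 CPM against 217 of 223 mature wells. Mal, a proteolipid of sorted myelin vesicles, had medians of 104, 142 and 4538 CPM. Aspa, which cleaves N-acetylaspartate, had medians of 2.88, 4.74 and 569 CPM, and Cntn2, a cell adhesion molecule beside the node, 3.66, 4.94 and 463 CPM. The log2 ratios of summed committed to mature wells were -4.59, -4.02, -4.77 and -4.67. Opalin (-3.45), the gap junction gene Gjb1 (-3.36) and Mobp (-2.42) were lower as well, and none of these 7 genes was 2-fold higher than in precursor wells.

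Mog had a median of 484 CPM in committed wells (9.92 to 2907) and 75.7 in precursor wells, and Mag 1672 CPM (51.1 to 8048) and 256. Nfasc, which organises the node and the paranode, was the 1 myelin gene higher than in mature wells, with a median of 2627 CPM in committed, 789 in mature and 150 in precursor wells. Its log2 ratio to mature wells was 1.19, and 0.30 within set 600s_182s, where the call was lost. Other genes among the 10 lowest against mature wells were the alarmin Il33 (27.8 against 956 CPM), the potassium channel Kcnk13 (5.31 against 245), the growth factor receptor Kit (5.01 against 160), the secreted protein Olfml1 (7.86 against 317), Fhl1 (5.90 against 168), the uncoating co-factor Dnajc6 (4.59 against 124) and the membrane-bending protein Fnbp1 (21.8 against 494).

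Of 8 precursor markers besides the defining Pdgfra and Ptprz1, 6 were lower than in precursor wells and 0 higher (median -2.79). Chondroitin sulphate proteoglycan 5, Cspg5, had 1557 CPM in precursor wells and 45.3 in committed wells, and the proteoglycan Cspg4 (NG2) 1104 and 54.4. The markers Gpr37l1 (-0.28) and Vcan (-0.92) were within 2-fold of the precursor level. Apart from the lists, the genes lowest against precursor wells were the retinoid binding protein Rlbp1 (6.55 against 555 CPM, log2 ratio -6.20), Tacc2 (-6.19), the cysteine dioxygenase Cdo1 (-6.15), the Notch ligand Dll3 (-5.97), Etv5 (-5.87), the endothelin receptor Ednrb (-5.70), Igfbp3 (-5.68), the amino acid transporter Slc38a3 (-5.64), C1ql2 (-5.62) and the potassium channel Kcnd2 (-5.59).

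Cell cycle genes were called lower than in precursor wells for 19 of 28 measured members and higher for 2 (median -1.63). Ccnd1, the cyclin of the entry into the cycle, had a median of 941 CPM in precursor wells (0 to 3617) and 17.6 in committed wells (0 to 291). Ccnd2 and Ccnd3 had log2 ratios of -3.60 and -3.06, and the mitotic genes Top2a, Mki67, Cdk1 and Aurkb ratios of -5.09, -4.90, -4.08 and -4.37. The 2 higher members were inhibitors: Cdkn1c, which blocks cyclin-dependent kinases, at 45.1 CPM against 5.52, and Gadd45a, a stress-induced growth arrest gene, at 80.4 against 17.9. Neither was in most wells, with 100 CPM in 10 and in 23 of the 78, and Gadd45a shares exon bases with an antisense gene. No other inhibitor on the list was called higher. Btg2, a growth-inhibiting member, was lower, at 6.10 CPM against 21.2 in precursor wells and 32.2 in mature wells. Within set 613s its log2 ratio to precursor wells was 0.97. Cdk4 was not lower (521 CPM against 360).

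Surface, matrix and glycan genes were often higher than in mature wells. Of 41 measured members, 23 were higher and 4 lower (median 1.54), where all genes had 19.1% and 12.6%. Against precursor wells 5 of 43 were higher and 16 lower (median -0.0050), where all genes had 10.8% and 24.3%. Tnr, tenascin-R, a matrix glycoprotein, had medians of 1354 CPM in committed wells (0 to 3102), 613 in precursor wells (0 to 3232) and 4.62 in mature wells (0 to 1879). Bcan, the proteoglycan brevican, had medians of 2279, 2618 and 22.3 CPM, and Vcan, versican, 191, 459 and 2.54. The log2 ratios of Tnr, Bcan and Vcan to mature wells were 5.83, 4.08 and 4.55. Cspg5 (-5.07), the syndecan Sdc3 (-4.96), the glypican Gpc5 (-5.22) and the neurexophilin Nxph1 (-3.92) were at the same time low against the precursor, so the precursor level was not shared by all matrix genes. The lowest members against mature wells were Cntn2 and the sialyltransferase St8sia3 (-1.80).

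Ion channels and transmitter receptors were lower than in precursor wells for 26 of 36 measured members and higher for 3 (median -2.10), among them the glutamate receptor subunits Gria3 (-2.14), Grm5 (-2.84) and Grin3a (-2.75). Gria2 was within 2-fold of the precursor (-0.69), and Kcna1, a potassium channel of myelinated fibres, was at its mature level (183 and 181 CPM, 15.9 in precursor wells). Receptors that steer the lineage were lower for 19 of 39 besides Ptprz1 and higher for 9 (median -0.67). Plxnb3, a plexin, had 1499.6 CPM against 125 in precursor and 324 in mature wells and was transient, and the endothelin receptor Ednra had 68.2 CPM against 10.3 and 1.03. Against mature wells the adenosine receptor Adora1 (-4.43) and Gpr37 (-3.17), a receptor of maturing oligodendrocytes, were lowest.

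Of the Bmp, Wnt and Notch genes, 14 of 26 were lower than in precursor wells and 5 higher (median -1.19). The Notch ligands Dll1 (-4.54) and Dll3 and the receptor Notch1 (-1.62) were low, and so was Bmp7 (-4.38), while Bmp4 was high. Of the Bmp receptors, Bmpr1a was more than 2-fold lower than in precursor wells (15.9 CPM in committed, 38.1 in precursor wells). Bmpr2 was at a like level in both (47.4 and 48.2), and both receptors remained measurable. Of the Wnt genes, Axin2, a target of the pathway, was at 26.4 CPM against 18.1 and 4.00, and Nkd1, an inhibitor, was below both classes (26.6 against 66.2 and 237). Of 27 ligands and secreted factors, 14 were lower and 10 higher than in precursor wells (median -1.04), with Wnt7a (1.07 against 107 CPM) and Wnt7b (4.96 against 196) among the lower ones.

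Cytoskeletal genes were higher than in precursor wells for 18 of 46 and lower for 6 (median 0.69), and higher than in mature wells for 13 of 45 and lower for 7 (median 0.45). Besides Fyn and Tns3, Pfn2, a profilin of actin assembly, had medians of 1334 CPM in committed, 297 in precursor and 79.3 in mature wells, and Tubb2b, a tubulin of young cells, 257 CPM against 129 and 7.77 in summed wells. Marcks, which links actin to the membrane, had 673 CPM against 437 and 33.3. Stmn1 (-3.39) and Stmn4 (-3.29), which destabilise microtubules, were the lowest against mature wells, and Tubb4a, the tubulin of mature oligodendrocytes, was near its mature level (3396 and 4066 CPM). Tubulin genes are near-identical in places, and how reads matching several genes were counted is not given in the sources used here.

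Lipid synthesis genes were higher than in precursor wells for 14 of 40 measured members besides Enpp6, which the rule used, and lower for 1 (median 0.79). All genes had 10.8% higher and 24.3% lower. Against mature wells 6 were higher and 4 lower (median 0.03), near the shares over all genes (19.1% and 12.6%). Fads2, a fatty acid desaturase, was higher than in mature wells (1.92), and Aspa and the desaturase Scd1 (-1.70) were lowest.

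Amino acid metabolism held 1 of the largest single differences. Pycr1, the last enzyme of proline synthesis in mitochondria (chromosome 11, 120635712 to 120643769, minus strand), ran from 0 to 1497 CPM in committed wells (median 196), 0 to 489 in precursor wells (median 5.05) and 0 to 108 in mature wells (median 0). Its summed values were 415 CPM (409 to 421) against 25.7 and 2.95, log2 ratios of 3.96 and 6.72. Aldh18a1, which makes the proline precursor, was higher than in mature wells only (91.4 against 6.16 CPM, and 97.5 in precursor wells). Over the whole list 10 of 25 measured members were higher and 7 lower than in mature wells (median 0.38, with 9 and 3 within set 600s_182s), and 4 were higher and 5 lower against precursor wells (median -0.15). Phgdh, the first enzyme of serine synthesis, was lower than in mature wells (-2.10), and the folate enzyme Aldh1l1, also an astrocyte marker, was the lowest (-3.39). Shmt1, a serine hydroxymethyltransferase, had 97.4 CPM against 14.9 and 5.39. Without set 600s_182s Shmt1 was lower than in both classes, with log2 ratios of -3.71 to precursor and -1.79 to mature wells, so its difference rests on that set.

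Immediate early and stress genes were lower than in mature wells for 13 of 17 measured members and higher for 1 (median -1.33), and lower than in precursor wells for 10 of 16 and higher for 2 (median -1.97). Fos had a median of 19.2 CPM in committed wells (0 to 8254), 94.6 in precursor wells and 59.3 in mature wells. Egr2 (-3.28), Dusp1 (-3.23), Junb (-2.79) and Egr1 (-2.42) had the lowest ratios to mature wells, and Ier3 (1.89) was the 1 higher member. These genes also respond to tissue digestion, and the labels give no handling time per well, so that a difference in handling between wells cannot be told apart from the class. Within set 600s_182s 7 of 14 were lower than in mature wells and 3 higher.

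**Figure D4:**
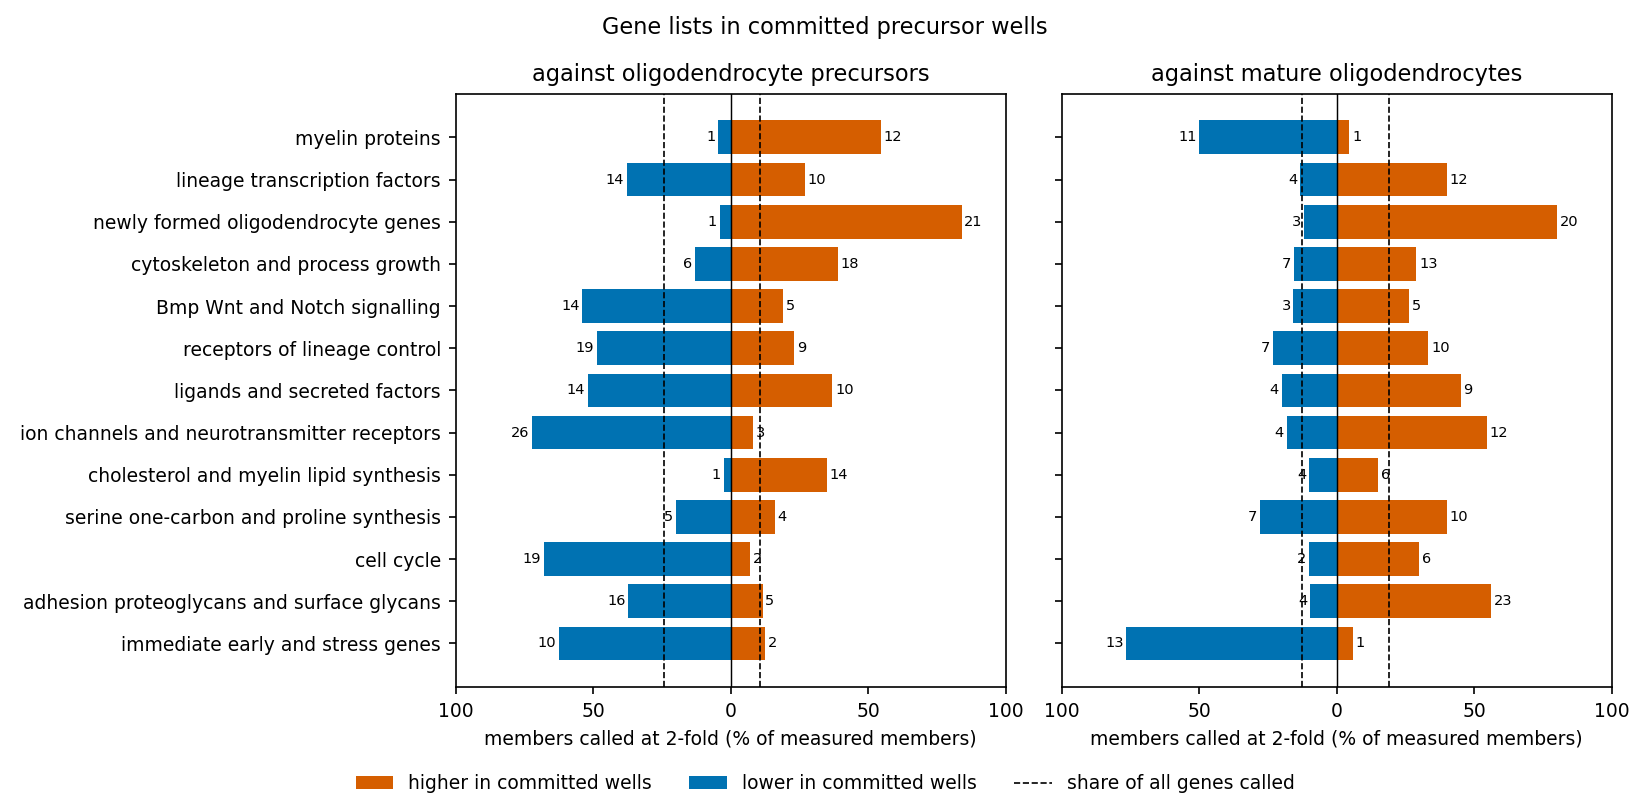
Bars give the percentage of measured members of each list called at 2-fold, to the right for higher and to the left for lower in committed wells, with the number of genes at the end of each bar; dashed lines mark the share among all genes. Genes that defined the classes are left out. Newly formed oligodendrocyte genes were mostly higher on both sides, 12 of 22 myelin genes were higher than in the stage before and 11 lower than in the stage after, and cell cycle genes and ion channels were mostly lower than in precursors.

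The committed wells were not uniform. Bmp4 was at 130 CPM or more in 48 wells and at 45.3 CPM or less in 30, with no well between, so a division at 100 CPM is used below; it was chosen after the values were seen. The median depth was 474776 reads in wells over and 433960 in wells under the division. Wells over it were 43 of 63 in set 600s_182s, 5 of 8 in set 613s and 0 of 7 in set 1025s_182s, where all 7 wells had 0 Bmp4 reads. Of 10413 genes other than Bmp4 and the defining genes, 2143 (20.6%) were at least 2-fold higher in the Bmp4-over wells and 1536 (14.8%) in the Bmp4-under wells. Of the 73 other transient genes, 18 were higher in the former and 15 in the latter. Within set 600s_182s the counts were 14 and 20, against 2441 and 1571 of 10314 genes there.

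In the Bmp4-over wells, several markers of the precursor and of the committed stage were higher. Gpr17 ran from 1037 to 7888 CPM there (median 3464) and from 0 to 2796 in Bmp4-under wells (median 966). Neu4 had medians of 1373 CPM (266 to 3549) and 29.1 CPM (0 to 1403), and Sox6 202 (0 to 1098) and 4.52 (0 to 285). Of 8 measured precursor markers besides the defining genes, 6 were higher in Bmp4-over wells and 0 lower (median log2 ratio 2.48, 2.35 within set 600s_182s). Of 5 committed precursor markers besides Enpp6, 3 were higher and 0 lower, and within set 600s_182s 4 and 0. Fyn had medians of 2672 CPM in Bmp4-over and 1134 in Bmp4-under wells, and Bcas1 1803 and 851. In summed wells, the surface genes Plxna3 (121 against 2.04 CPM) and L1cam (73.2 against 1.70), the glutamate receptor Gria3 (143 against 7.33) and the neuronal-type tubulin Tubb2b (376 against 50.7) had the same direction. Of the 48 Bmp4-over wells, 100 CPM was reached by 20 for Plxna3, 11 for L1cam, 25 for Gria3 and 41 for Tubb2b. The medians of Plxna3 and L1cam there were 8.87 and 1.75 CPM. Of 41 surface, matrix and glycan genes 17 were higher and 7 lower, and of 26 ion channels and transmitter receptors 13 and 4. Of 5 measured astrocyte markers 3 were also higher and 1 lower, and their part in these differences was not tested. Shmt1 reached 100 CPM in 25 of 48 Bmp4-over wells and in 0 of 30 Bmp4-under wells.

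Other genes of the stage were higher in the Bmp4-under wells. Tmem2 had a median of 511 CPM there (0 to 1994) and 2.11 CPM in Bmp4-over wells (0 to 80.7), with 100 CPM in 25 of 30 and 0 of 48 wells. Rras2 had medians of 664 and 3.16 CPM, the receptor Fgfr2 354 and 5.81, the decarboxylase Ddc 675 and 11.2, and Pdgfa 519 and 9.35. Mag had a median of 3708 CPM (63.6 to 8048) against 869 (51.1 to 3610), and Mobp 1188 against 168, while the medians of Opalin were 40.4 and 43.6. Of 22 measured myelin genes 10 were higher in Bmp4-under wells and 2 in Bmp4-over wells (median log2 ratio of over to under -0.92), and within set 600s_182s 7 and 3 (median -0.40). Of 10 mature oligodendrocyte markers 7 were higher in Bmp4-under and 1 in Bmp4-over wells, but within set 600s_182s 2 and 2 of 9. The log2 ratios of over to under were -0.85 for Cntn2 and -1.73 for Aspa in all sets and 2.08 and 0.61 within set 600s_182s, so these late genes turned direction. Cholesterol and lipid synthesis genes were higher in Bmp4-under wells for 15 of 40 and in Bmp4-over wells for 1 (median -0.71), with the same counts within set 600s_182s. Enpp6, which chose the wells, had medians of 2218 CPM in Bmp4-under and 1733 in Bmp4-over wells. The Mog and Mag minimum of the mature class was reached by 13 of 30 Bmp4-under and 12 of 48 Bmp4-over wells.

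Over the 78 committed wells, which share a sample and differ in depth and set, Spearman's rho of Bmp4 was 0.79 with Gpr17, 0.76 with Neu4, 0.76 with Fyn, 0.71 with Sox6, 0.62 with Mycl, -0.64 with Mag and -0.54 with Mobp. Within the 63 wells of set 600s_182s the values were 0.72, 0.68, 0.72, 0.63, 0.53, -0.67 and -0.51. The weaker rho with Tcf7l2 was -0.39, and -0.57 within that set. Tcf7l2 was present on both sides of the division, with medians of 1050 CPM in Bmp4-under and 393 in Bmp4-over wells.

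**Figure D5:**
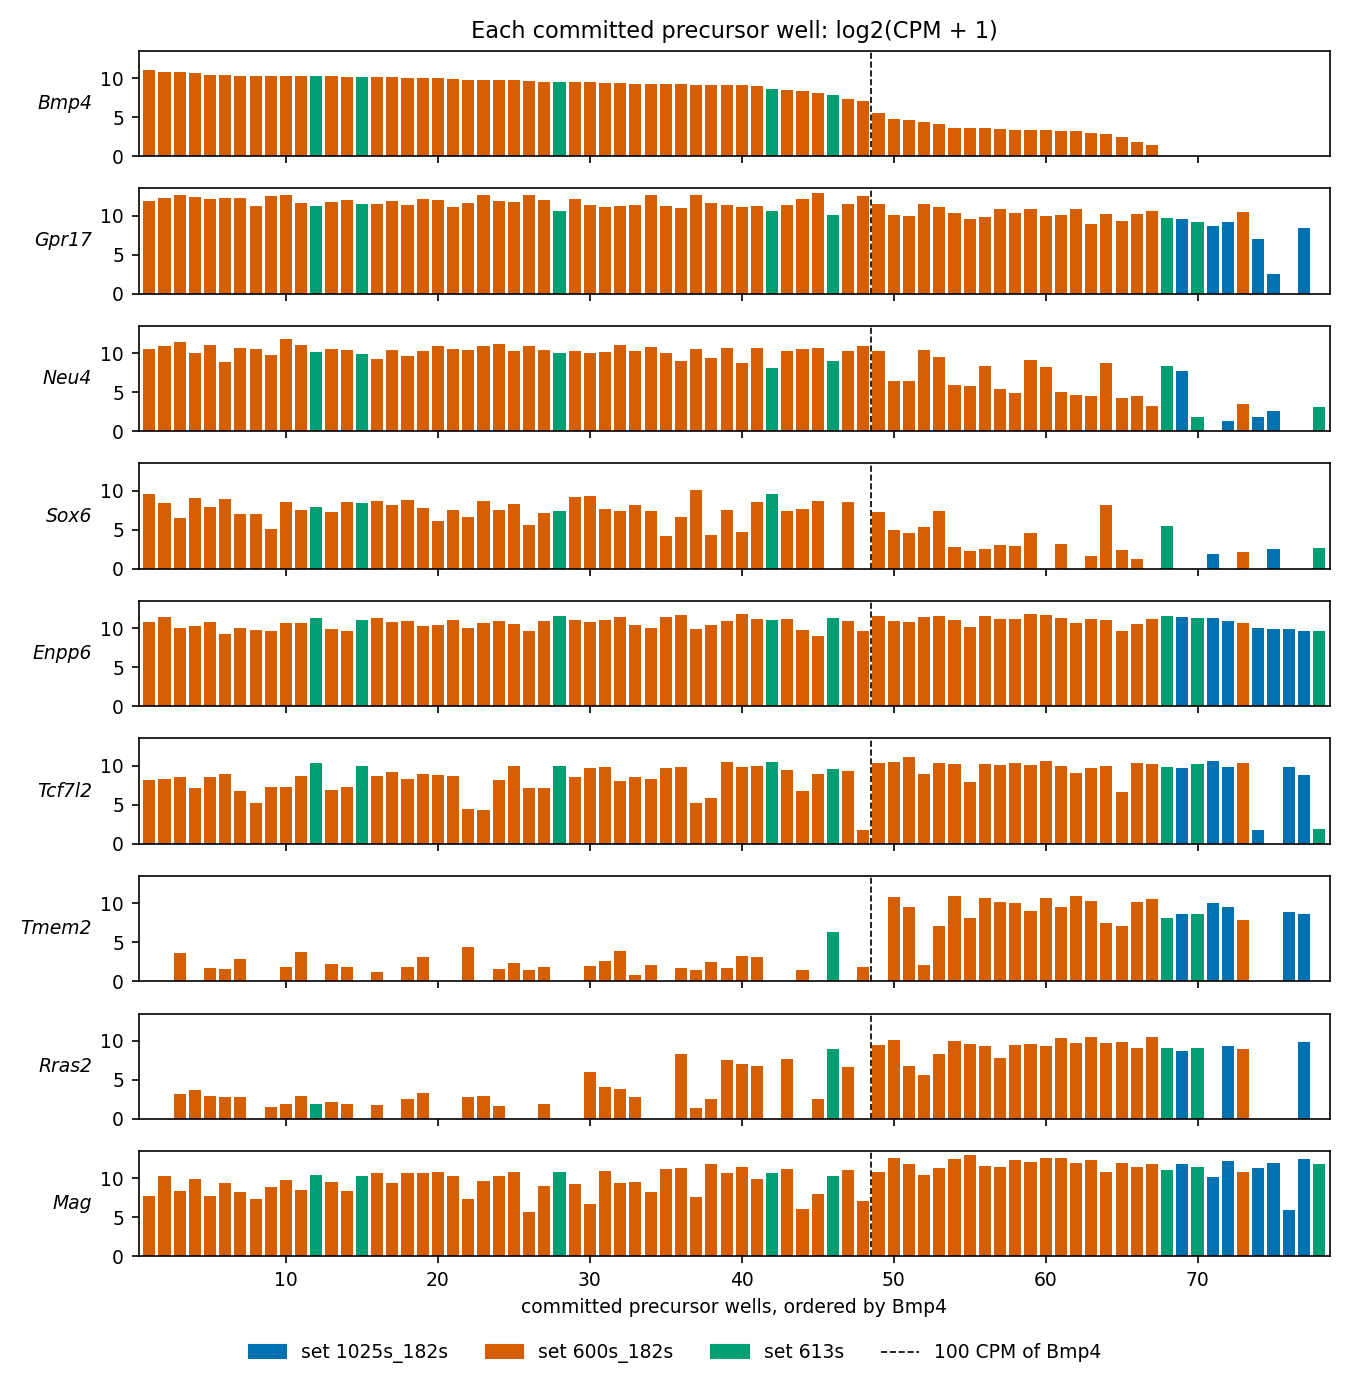
Each bar is 1 of the 78 committed wells, in falling order of Bmp4, with the level of 9 genes as log2(CPM + 1) and the set as colour. Gpr17, Neu4 and Sox6 were higher to the left of the dashed line (48 wells over 100 CPM of Bmp4), Tmem2, Rras2 and Mag higher to the right (30 wells), and Enpp6 was high on both sides.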

How the data were processed

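Values are whole-number read counts per gene and well as deposited by the authors (46517 genes, 1152 wells). Per the submitters' processing notes, the tools were TopHat2 2.1.1, SAMtools 0.1.18 and, from Subread 1.4.6-p5, featureCounts, and the builds GRCm38 and mm10. No source used here gives the annotation, the strand setting or the handling of reads that match several genes. The libraries carry no molecular identifiers, so intervals cover counting error only. CPM was computed from the counts. Class ratios are log2 ratios of the CPM of summed wells, each increased by 1 CPM, and a gene was called at 2-fold with 10 CPM in the higher class. Loci come from GENCODE vM21. The code was checked on simulated counts. Genes to name were taken from the first 25 transient genes by the smaller ratio, the 10 highest and 10 lowest against mature wells, the 10 lowest against precursor wells, the extremes and described members of each list, and the markers. Members and lists were chosen with earlier results of these data known. Alternatives covered the class limits, depth, sets, scaling, added CPM and wells with markers of another type. Python 3.11.15 with scipy 1.17.1 was used. Results of some of these genes, 1 of the 25 among them, are not reported here.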

Additional observations from a re-analysis of the deposited data

Results flagged for a closer look

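Wells under 50000 reads were in no comparison, and 3 of these 295 met the Enpp6 and Pdgfra limits of the committed class with more Enpp6 reads than the 3 that a count of 0 allows. A well of set 1025s_182s had 697 Enpp6 reads of 34646, with 0 Gpr17 reads, 1 Fyn read and 18.1% of reads on mitochondrial genes. In set 613s, 1 well had 13 Enpp6 reads of 19914 with 19 Gpr17 and 17 Fyn reads, and 1 had 5 of 9535 with 0 and 1. None of the 3 had mitochondrial genes under 5% (18.1%, 6.58% and 9.54%).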

How the results depend on the processing

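The 78 wells came to 63 to 89 under the other limits tried for Enpp6, Pdgfra, mitochondrial genes and depth, and the 74 transient genes to between 52 (wells of middle depth only, chosen after seeing the data) and 90 (1000 CPM of Enpp6), except within set 613s, with 8 committed wells. There 133 genes were transient, 3002 were lower than in mature wells (1308 pooled) and 2509 higher than in precursor wells (1240 pooled). Adding 10 CPM left 1279 genes higher and 855 lower than in mature wells (1977 and 1308). Without the 10 CPM minimum 2981 were higher and 2416 lower, and 4446 lower than in precursor wells (2781). Without wells carrying markers of another type 2212 were higher than in precursor wells, and without set 600s_182s, also chosen afterwards, 2268, with 2211 lower than in mature wells; the cause was not tested. The rho of Bmp4 with Bcan was -0.37, and -0.59 within set 600s_182s. Of 2793 called ratios of named genes over all settings, 9 changed sign. They were Il33 to precursor wells at 300 CPM of Enpp6 (0.0016), Btg2 (0.97) and Zfp536 (-0.38) to precursor wells and Shmt1 to precursor (-4.06) and mature wells (-2.20) within set 613s, Cdo1 to mature (0.13) and Egr2 to precursor wells (0.38) without mixed wells, and Shmt1 without set 600s_182s (-3.71 and -1.79). No paired analysis was possible because all wells form 1 group without pairs. Depth limits single wells: at 50000 reads, 1 read is 20 CPM.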

Other observations

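The 6 wells with the committed minimum of Enpp6 that were left out for Pdgfra did not share 1 profile. Pdgfra was at 383 to 1079 CPM in them and Enpp6 at 509 to 1217 CPM. A well of set 600s_182s with 584 CPM of Pdgfra had 1686 CPM of Gpr17, 1912 of Fyn, 3174 of Ptprz1, 330 of Ccnd1 and 37.7 of Bmp4. The 3 wells of set 613s had Mog at 1483 to 1905 CPM and Mag at 2726 to 3843 CPM beside Ptprz1 at 871 to 2369 CPM, so transcripts of the precursor and of the mature cell were found in the same well, with 0 Bmp4 reads. The well of set 1025s_182s had Gpr17, Fyn and Ptprz1 each at 1.61 CPM.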
